A study of Mus musculus with 288 samples.

Results

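The cells described here were mouse embryonic stem cells held in 2i medium and taken at 0 h, before any release into serum. They were chosen as the wells whose label starts with D0, with over 200000 reads, over 2000 genes with a read and less than 15% of reads on genes of the mitochondrial genome. This left 90 of the 96 D0 wells, out of 233 passing cells in the 288 wells of the 3 time points. No measured value of a pluripotency gene entered the choice. In the study, which followed DNA methylation, chromatin accessibility and transcription in the same cells after release from 2i, each cell was sorted alone into a well of a 96-well plate, its nucleus was treated with a GpC methylase, and its polyadenylated RNA was made into a library of its own (scNMT-seq). The cells were labelled as the E14 line of strain 129/Ola, which grew on gelatine-coated plastic in N2B27 medium with LIF, CHIR99021 and PD0325901 and were detached with accutase. All 90 cells came, as far as the labels show, from 1 culture on 1 plate, so they were described as cells of that culture and not as replicates, and no test was made. Wells were sorted as single cells and no doublet caller was run.

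In 2i, CHIR99021 inhibits GSK3 and so stabilises beta-catenin, PD0325901 inhibits MEK and so shuts off signalling to ERK, and LIF acts through its receptor and STAT3. Together these hold stem cells in the naive or ground state, which resembles the inner cell mass of the preimplantation embryo and is kept by transcription factors such as Nanog, Klf4, Esrrb and Tfcp2l1 around a core of Oct4 (Pou5f1) and Sox2. Cells in this state have low global DNA methylation, divide rapidly and have not yet switched on the genes of the formative epiblast.

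The 90 cells held between 255040 and 10073010 reads, with a median of 1610758.5. Reads were raw counts without molecular identifiers. The interval given below covers the sampling of cells only, and not error in the counting of reads. To compare cells at equal depth, each was also thinned at random to 200000 reads, after which it showed between 1992 and 8768 genes with a median of 7793.5. Of the 90 cells, 9 stood apart from the rest.

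Among these 9, 3 carried reads of genes on the Y chromosome (Uty, Kdm5d, Ddx3y and Eif2s3y), at summed levels of 1242, 793 and 21.6 reads per 1000000 reads (CPM) in wells H03, B08 and D12, while the other 87 cells had none. The X-linked gene Hprt was at 0 CPM in wells H03 and B08 and at 40.9 CPM in well D12, and 8 of the other 87 cells had an Hprt read, at most 54.1 CPM. The other 6 cells that stood apart, in wells A02, B02, E06, F03, H08 and H09, had between 1992 and 5584 genes after thinning, below a limit of 6012 set at 3 scaled median absolute deviations under the median. Their depth was not low, at 892424 to 8974615 reads. The 81 remaining cells had 6395 to 8768 genes after thinning, and the main results below are given for all 90 cells and for these 81. Whether the 3 cells with Y-linked reads and the 87 without came from the same culture cannot be told from the labels. Which of them match the named line was not tested.

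The label of the state was checked against its markers. Zfp42, which encodes the transcription factor Rex1, had reads in all 90 cells, at 228 CPM in the lowest cell, 853 in the median and 1868 in the highest. Tfcp2l1, a naive transcription factor downstream of LIF, was likewise read in all 90 cells, at 224, 1564.5 and 3199.7 CPM. Nanog, a homeobox factor of the naive network, was read in 89 cells, with a lowest level of 0, a median of 445 and a highest of 1178 CPM. The only cell without a Nanog read after thinning was the few-gene cell in well H08, and the lowest of the 81 cells had 10 thinned reads. Klf4, a zinc finger factor induced by LIF, was read in 86 cells, at 0, 70.02 and 475 CPM. All 4 markers were thus read in at least 86 of the 90 cells. Each varied about as much as other genes of its mean, with a coefficient of variation (CV) between 0.84 and 1.02 times that of genes of equal mean.

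Divided by the median spliced transcript length of each gene and brought to 1000000 per cell (the per-length level), Zfp42 stood at 517 ± 189 (SD over 90 cells, as for each level that follows), Tfcp2l1 at 335 ± 114, Nanog at 248.5 ± 116 and Klf4 at 103 ± 93.3. The SDs of neighbours in this order overlapped. Among the other naive factors, Tcl1, which encodes a coactivator of the kinase Akt, was at 425 ± 310, the orphan nuclear receptor Esrrb at 90.1 ± 50.2, Klf5 at 68.8 ± 38.3, Klf2 at 61.01 ± 34.6, the orphan receptor Nr0b1 at 59.7 ± 63.8, Nr5a2 at 38.9 ± 26.2 and the T-box factor Tbx3 at 37.1 ± 21.1. Of the 13 listed naive factors, 9 were read in at least 95% of the cells, as were 11.98% of all 23824 genes with a read. The lowest shares were those of Nr0b1, read in 70 cells, of Prdm14, a repressor of DNA methyltransferase genes, read in 57 cells, and of Gbx2, read in 43 cells.

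Of the core pluripotency factors, Pou5f1 was read in 89 cells at 0, 486 and 893 CPM (lowest, median and highest), and its per-length level was 865 ± 308. Its only cell at 0 after thinning was again that in well H08, and the lowest of the 81 cells had 26 thinned reads. Sox2, its partner on DNA, was read in all 90 cells at 0.684, 55.9 and 317 CPM, with a per-length level of 32.4 ± 22.1. Sall4, another zinc finger factor of the network, was also read in all 90 cells, at 0.342, 182 and 475 CPM. The lowest values of Sox2 and Sall4, under 1 CPM, both came from the cell in well B02, one of the few-gene cells, with 5846378 reads.

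Among the genes of LIF signalling, Stat3 was read in 86 cells, the receptor subunits Il6st and Lifr in 84 and 83, and Socs3, a feedback inhibitor that STAT3 induces, in 71. Of 13 targets and feedback genes of ERK, 2 were read in at least 95% of the cells, a share close to that of all genes, namely Etv5, an ETS factor, with 0, 321 and 789 CPM, and Spry2, an inhibitor of receptor tyrosine kinase signalling, with 0, 59.5 and 240 CPM. The phosphatase Dusp6, read in 21 cells, and the immediate early factors Egr1 and Fos, read in 8 cells each, had no read in most. Of 10 targets of beta-catenin none reached 95% of the cells, beside 11.98% of all genes with a read. Among them, Axin2, a negative feedback component of the pathway, was read in 81 cells at 0, 26.3 and 291 CPM. Members of these 3 signalling lists thus ranged from reads in nearly all cells to reads in few.

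Of 8 genes of DNA methylation and its oxidation, 4 were read in at least 95% of the cells, beside 11.98% of all genes with a read. Uhrf1, which brings the maintenance methyltransferase to newly copied DNA, was at 0.684, 901 and 1763 CPM in 90 cells, and that methyltransferase, Dnmt1, at 0, 146 and 851 CPM in 86 cells. The dioxygenases Tet1 and Tet2, which oxidise methylcytosine, were read in 89 and 88 cells, at medians of 612 and 272 CPM. The other 4 were read in fewer cells, the de novo methyltransferase genes Dnmt3b in 77 and Dnmt3a in 25, their cofactor Dnmt3l in 35 and Tet3 in 29.

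Markers of other cells that such a culture can hold were read in few cells or at low levels. Of the 7 lists, the 2-cell-like genes had a read in 2 cells, both of Usp17la, with Zscan4a at 0, and their summed level was at most 16.2 CPM. Fibroblast genes had a read in 7 cells (at most 15.5 CPM, Col1a1 in 5 cells), primitive endoderm genes in 20 (at most 181 CPM, Gata6 in 7), mesoderm genes in 28 (at most 90.1 CPM, T in 18 and Mesp1 at 0) and trophectoderm genes in 30 (at most 165 CPM, Cdx2 in 9). Neuroectoderm genes had a read in 60 cells, at most 199 CPM, through Tubb3 in 45 and Nes in 29, with Pax6 at 0. Formative genes had a read in 74 cells, at most 179 CPM. Of these, the homeobox factor Otx2 was read in 45 cells, while Fgf5 had a read in 0 of 90 cells, which allows up to 4.02% of cells with a read (exact Clopper-Pearson 95% limit, with cells of the 1 culture taken as independent draws). A share read at this depth does not show that a gene was off in the other cells.

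The most abundant transcripts per length came from the mitochondrial genome, from chaperones, the cytoskeleton and the translation machinery. The 20 leading genes held 9.84% ± 1.71 (SD, n = 90 cells) of all reads. The highest mean was that of mt-Co1, a subunit of cytochrome oxidase, with per-length levels of 1931, 13846 and 39817 in the lowest, median and highest cell, although 51.1% of its 50-base words also occur in other annotated genes, so that its count depends on how shared reads were assigned. Next came the cytosolic chaperone Hsp90aa1 (4051, 10815 and 29757), mt-Nd1 of respiratory complex I (1889, 9953 and 20909) and the cytoskeletal actin Actb (1429, 9647 and 21027). Hsp90ab1, the constitutive HSP90, and Eef1a1, which delivers aminoacyl-tRNA to the ribosome, followed with means of 7568 ± 1836 and 6428 ± 2324. The ranges of these 6 genes over cells overlapped.

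The seventh gene, Dppa5a, was the highest of the listed pluripotency genes, with a per-length level of 326 in the lowest, 3926 in the median and 18479 in the highest cell. It encodes a small RNA-binding protein of embryonic stem cells. Its 4 highest cells in thinned reads, in wells H08 (3157 reads), E06 (1335), B02 (1322) and H09 (1101), were all among the 6 cells with few genes, and over the 81 other cells it ran from 29 to 1011 reads with a median of 468. Accordingly its CV was 1.70 times that of genes of equal mean over 90 cells and 1.00 times over 81. The other Dppa genes were far lower per length, Dppa3 at 124 ± 126, Dppa4 at 50.1 ± 42.6 and Dppa2 at 30.8 ± 39.6.

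The remaining leading genes were mt-Cytb, the peroxidase Prdx1, Rpl5, the nucleolar protein Npm1, the ATP synthase subunit Atp5b, mt-Nd5, asparagine synthetase Asns, the chaperonin subunit Cct8, Hnrnpk, the chaperone Hspa8, and Rps4x, Rpl4 and Rpsa of the ribosome, with means from 4164 down to 2431. Asns, the amino acid enzyme among them, stood at 2752 ± 1130. The order rests on the length given to a gene: 14 of the 20 genes stayed among the first 20 when the longest transcript replaced the median one.

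**Figure D1:**
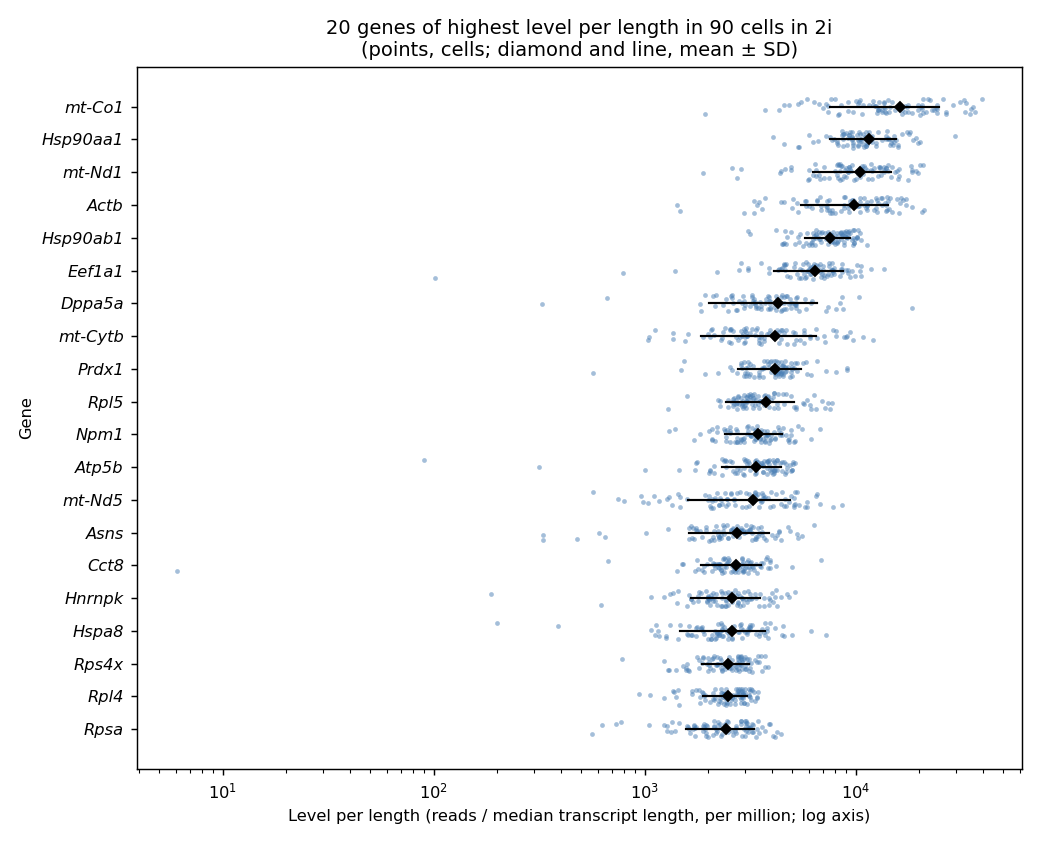
Per-length level (reads per base of median spliced transcript length, scaled to 1000000 per cell, log axis) of the 20 most abundant genes in 90 cells. Points are cells, and the diamond and line are the mean and SD. mt-Co1 has the highest mean, 16280 ± 8696, Dppa5a has the seventh, 4296 ± 2276, and the ranges of neighbouring genes overlap.

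Expression was broad. A total of 843 genes held 50% of the reads, and 23824 of the 54232 genes in the table had a read in at least 1 cell, 4184 of them in 1 cell alone. Every one of the 90 cells had a read of 776 genes, and 2853 genes were read in at least 95% of cells. At equal depth the numbers were 535 and 2085. Without the 9 cells that stood apart, 2003 genes were read in every cell.

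Genes read in every cell made up 3.26% of the 23824 genes with a read, and 8.41% over the 81 cells. For the cytosolic ribosome, 74 of 76 genes were read in all 90 cells (75 over the 81), for the proteasome, which degrades ubiquitinated proteins, 14 of 19 (19), and for translation factors 12 of 17 (17). Of the naive factors 2 of 13 were read in every cell (7 over the 81), of the core factors 2 of 8 (5), of Polycomb genes 2 of 11 (6), of glycolysis genes 4 of 19 (8) and of S phase genes 3 of 22 (11). For genes of G2 and mitosis it was 1 of 27 (2), close to the share of all genes, for LIF signalling 0 of 9 (2) and for germline genes 0 of 14 (0). Abundant genes are read in more cells, so these counts describe level and breadth together.

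Spread between cells was measured as the ratio of the CV of a gene in thinned reads to that of the 100 genes nearest in mean (CV ratio). At a mean of 5 thinned reads the typical CV was 1.47, at 20 it was 0.805 and at 100 it was 0.519. Over 90 cells, 131 of 6472 genes compared (2.02%) had a CV ratio of at least 2. Over the 81 cells this held for 72 of 6493 genes (1.11%), of which 45 were shared with the first set.

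Most of the wide genes over 90 cells were highest in a cell that stood apart. Of the 131 genes, 90 were highest in such a cell, 41 of them in well H08 and 33 in well B02. Atp5j, a subunit of ATP synthase, had 4652 thinned reads in well B02 beside a median of 121, and its CV ratio was 5.82 over 90 and 1.24 over 81 cells. Cox8a, of cytochrome oxidase, had 1541 reads in well H08 beside a median of 70.5, with ratios of 3.33 and 0.75. Rps29 of the small ribosomal subunit had 1800 reads in the same well beside a median of 124, with ratios of 3.27 and 0.74. In these genes the wide spread was that of 1 or 2 libraries. They were short, as the genes highest in wells B02 and H08 had a median longest transcript of 1232 bases, beside 3423.5 over all genes compared and 2855 for the 41 wide genes highest in cells that did not stand apart. These 2 cells had 2669 and 1992 genes after thinning, and ribosomal protein genes took 13.5% and 17.6% of their reads beside a median of 5.31% over the 90 cells. Why these libraries differed was not tested.

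Without those cells, the wide genes fell into genes high in 1 cell and genes high in many. Peg10, an imprinted gene derived from a retrotransposon on chromosome 6, had the largest CV ratio of all genes compared, 6.32 over 81 cells. It had 652 thinned reads in the cell in well C06, 218 in well B09 and at most 39 elsewhere, and was at 0 in 62 of the 90 cells. Dis3l, a subunit of the RNA exosome, had 287 reads in well C08 and at most 23 in any other. Rps6ka6, a kinase of the RSK family, had 408 in well G11 and 123 in the next cell, Gsto1, a glutathione transferase, 230 in well C06 and then 44, Capn7, a calpain protease, 362 in well A01 and then 90, and Atm, the DNA damage kinase, 470 in well A01 and then 123. mt-Rnr2, the large mitochondrial ribosomal RNA, had 5556 in well B12 and 1600 in well B11, next to each other on the plate, beside a median of 227.5. Each of these genes had 1 or 2 cells far above the others. When the highest of the 81 cells was left out for each gene, 39 of the 72 genes kept a CV ratio of at least 2.

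Other wide genes were high in many cells. Dazl, an RNA-binding protein of germ cells whose promoter is known to be a target of DNA methylation, was at 0 in 37 cells and had at least 10 thinned reads in 41. Its 4 highest cells, in wells B07, B08, B01 and B09, had 440, 373, 277 and 277 reads beside a median of 5. These wells lie in the same row of the plate, and B08 held one of the cells with Y-linked reads. The CV ratio of Dazl was 3.20 over 90 and 3.48 over 81 cells. Lefty2, a secreted inhibitor of Nodal signalling, was at 0 in 48 cells and had at least 10 reads in 29, with 243 in well G02, 132, 126 and 119 in the next. Lefty1, its neighbour in the family and named here after its values were seen, was at 0 in 76 cells and also highest in well G02, with 43 reads. Sat1, which acetylates polyamines, was read in nearly all cells, with a median of 47, 905 reads in well B09 and 308 in the next.

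The cell in well B09, singled out after its values were seen, was also the highest for 3 of 12 listed chaperones of the endoplasmic reticulum. Hspa5 (BiP), the main chaperone of that compartment, had 977 thinned reads there beside 306 in the next cell and a median of 62.5, Hsp90b1 had 878 beside 289 and 100.0, and the calcium-binding chaperone Calr had 309 beside 172 and 79.5. For 6 of the 12 genes this cell was among the 3 highest. The list took 1.27% of its reads beside a median of 0.185% over the 90 cells. It was also the lowest of the 81 cells for Zfp42 (43 thinned reads beside a median of 174), Tfcp2l1 (154 beside 308.5) and Dppa5a (29 beside 478.5), while Nanog had 24 beside 92.5 and Pou5f1 65 beside 96.5. The cell had 2401410 reads and 7606 genes after thinning, within the range of the 81 cells. Over 90 cells the CV ratio of Hspa5 was 2.37, and 1.41 without its highest cell.

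**Figure D2:**
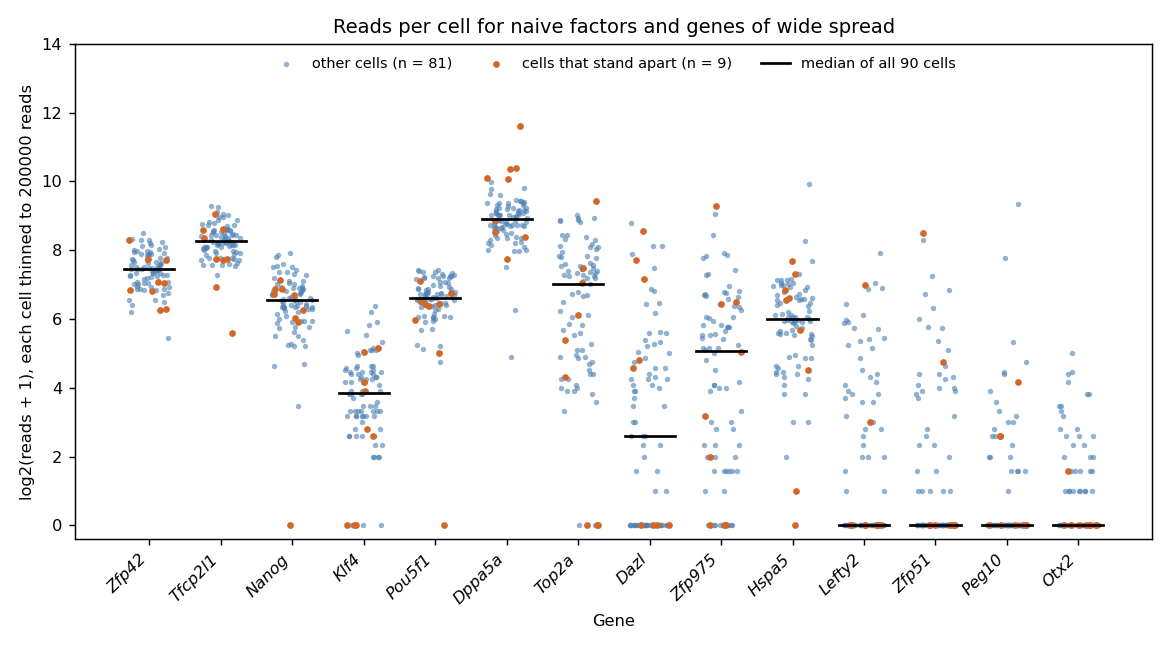
Thinned reads per cell, as log2(reads + 1) at 200000 reads, of 14 genes in 90 cells, with the median as a line. Orange points are the 9 cells that stood apart and blue points the 81 others. Zfp42 and Tfcp2l1 lie above 0 in every cell, Dazl and Lefty2 are at 0 in 37 and 48 cells and at 10 reads or more in 41 and 29, and Hspa5 has 1 cell at 977 reads.

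Genes numbered as zinc finger proteins were frequent among the wide genes, a group formed after the values were seen. Most such genes encode DNA-binding repressors of the KRAB family, whose members lie in clusters and silence transposable elements. Of the 72 genes with a CV ratio of at least 2 over 81 cells, 17 were protein-coding zinc finger genes, and the median CV ratio of all 150 such genes compared was 1.34, beside 0.999 over all genes. Zfp975 had 622, 528, 349 and 240 thinned reads in its 4 highest cells, a median of 32.5 and 12 cells at 0. Zfp976, its neighbour on chromosome 7, had 395, 260, 252 and 185 reads and 19 cells at 0. Zfp51 on chromosome 17 had 358, 316 and 151 reads, and 53 cells at 0. Each of them was thus high in some cells and at 0 in others. Zfp975 and Zfp51 were both highest in well A02, one of the few-gene cells, and Zfp976 in well H01.

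Most of the wide zinc finger genes lay in clusters. A cluster was a run of at least 3 such genes with gaps of at most 1 Mb from one to the next. Of 81 zinc finger genes in clusters, 16 were wide, and of 69 others, 1 was, beside 1.11% of all genes compared. In the cluster at chr7:41633203-43313294 (GRCm38), 5 of 7 genes were wide, namely Zfp788, Zfp977, Zfp976, Zfp975 and Zfp936, with a median CV ratio of 2.14. A median of 14.4% of the 50-base words of this cluster's genes also occur in other genes, with 30.4% for Zfp975 and 20.4% for Zfp976. At chr17:21008903-22867134 it was 5 of 14, namely Zfp51, Zfp53, Zfp760, Zfp995 and Zfp994, with a median of 1.78. Of these, Zfp995 had 222 thinned reads in well A01 and 82 in the next cell. The median rank correlation over cells between genes of the same cluster was low in these 2 clusters, at 0.022 and 0.079. In the cluster at chr4:145510759-147809788, 0 of 16 genes were wide and the median correlation was 0.39, but a median of 68% of the 50-base words of its genes also occur in other genes, so reads of many of its members cannot be told apart by sequence alone, although for Zfp982 and Zfp985 the share was 11.9% and 15.9%. With genes limited to those with less than 10% of shared words, 11 of 109 zinc finger genes were wide and the median CV ratio was 1.31.

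Wide spread was also found in lists of known function. Over all genes compared, the median CV ratio was 0.999, and 2.02% were at 2 or more over 90 cells and 1.11% over 81. Genes of G2 and mitosis had a median CV ratio of 1.41 over 90 cells (27 genes compared, 2 at 2 or more) and 1.42 over 81 (4 at 2 or more), while genes of S phase had medians of 0.944 and 1.03 (20 compared, 0 at 2 or more). Top2a, the topoisomerase that untangles chromosomes, had 0 thinned reads in 6 cells, a median of 129.5 and 694 in the highest, with CV ratios of 2.22 and 2.52. Ccnb1 (cyclin B1) ran from 0 through a median of 128 to 463, Cdc20, an activator of the anaphase-promoting complex, from 0 through 27.5 to 301, and Ube2c, a ubiquitin-conjugating enzyme of that complex, from 0 through 24.5 to 253, with CV ratios of 1.69, 1.91 and 1.85 over 90 and 2.04, 2.15 and 2.15 over 81 cells. Among imprinted genes, Plagl1, a zinc finger factor expressed from the paternal allele, ran from 0 through 45 to 414 (ratios of 2.04 and 2.21) and the noncoding RNA Kcnq1ot1 from 0 through 19.5 to 212 (1.93 and 2.10). The p53 target Trp53inp1 ran from 0 through 43 to 334 (1.87 and 2.16). Ribosomal protein genes had a median ratio of 0.879 over 90 cells with 11 of 74 at 2 or more, and of 0.734 over 81 cells with 0 of 74.

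**Figure D3:**
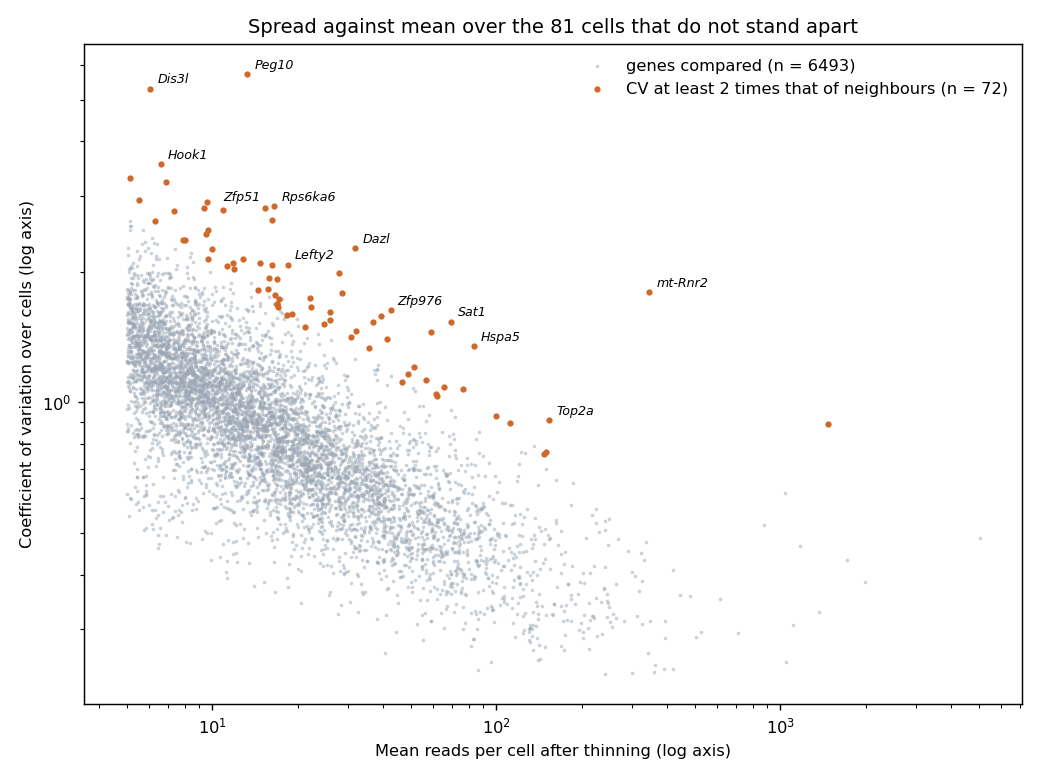
CV of thinned reads against the mean (both log axes) for 6493 genes over the 81 cells that did not stand apart. The 72 genes with a CV at least 2 times that of genes of equal mean are orange, and Peg10, at 6.32 times, lies farthest above the rest.

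Pairs of genes were compared by the Spearman rank correlation (rho) of thinned reads over the 90 cells, which share 1 plate and differ in depth, for 4311 genes read in at least 80% of cells. Of 9290205 pairs, 1764 (0.019%) had a rho of at least 0.6 and 34 (0.000366%) a rho of -0.6 or below, while the median of all pairs was 0.032. Without the cells that stood apart the numbers were 2138 (0.023%) and 39 (0.00042%). Of the 1764 pairs, 384 held a gene without an established symbol, 13 a symbol without a transcript of that name, 17 were near-identical copies and 1 overlapped. Of the other 1349 pairs, 786 were pairs within the ribosomal protein and mitochondrially encoded genes and 380 involved neither group. A value of at least 0.4 in both parts of the plate, columns 1 to 6 (43 cells) and 7 to 12 (47 cells), was seen for 1324 of the 1349. The pairs were chosen over these same cells, so this count is no separate check of them. After linear adjustment of the ranks for reads, genes with a read and mitochondrial share, 416 of the 1349 still reached 0.6.

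When genes outside the ribosome and the mitochondrial genome were joined at a rho of at least 0.7, the largest group held 16 genes, most of them of mitosis, among them Ccnb1, Cdk1, Cdc20, Cenpa, Cenpf, Ube2c, Bub1b and the tubulins Tuba1c and Tubb4b. At 0.6 these genes merged into a group of 125 that also held genes of other functions. Top2a and Kif11, the kinesin that separates spindle poles, lay in a group of their own at 0.7 with Fbxo5, and had a rho of 0.80 over 90 cells, 0.81 over 81 cells, 0.76 after adjustment, and 0.74 and 0.85 in the parts of the plate. Ube2c and Tuba1c followed at 0.79, and Cdk1 with its partner cyclin Ccnb1 at 0.73. Over the 21 listed genes of G2 and mitosis that were abundant enough, the median rho was 0.52 (0.54 over 81 cells, 0.48 adjusted), 50 of 210 pairs (23.8%) reached 0.6, and the lowest pair, Ccnb2 with Top2a, was at 0.15. For genes of S phase the median was 0.23 and the highest pair, Mcm2 with Mcm5 of the replicative helicase, was at 0.48. The summed reads of the mitosis list were 101 in the lowest cell, 1030 in the median and 3550 in the highest, and those of S phase genes were 191, 1047.5 and 1967. Over the 81 cells they were 194, 1018 and 3355, and 336, 1048 and 1967. The mean ranks of these 2 lists had a rho of -0.05, and the mitosis list had a rho of 0.42 with the number of genes at equal depth.

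Since the mitosis genes varied together, start regions of some of them are shown, from RefSeq on GRCm38.p6, 150 bases up to the start of transcription and read 5′ to 3′ on the strand of the gene. Capitals mark 2 short motifs known from promoters of mitotic genes, TTTGAA (the cell cycle genes homology region, reverse TTCAAA) and CCAAT (reverse ATTGG), which were chosen after the correlations were seen. The first 5 genes were picked because both motifs lie in the printed stretch, and Ccnb1 is shown beside them as a linked gene with CCAAT alone. In Arl6ip1, another linked gene, TTTGAA was likewise not found, and in Cenpf and Cenpa it lay after the start, outside the printed stretch. The regions are chr11:99024190-99024339 (minus strand) for Top2a, chr19:37376232-37376381 (plus strand) for Kif11, chr4:118437344-118437493 (minus strand) for Cdc20, chr2:164769779-164769928 (plus strand) for Ube2c, chr10:69352913-69353062 (minus strand) for Cdk1 and chr13:100786487-100786636 (minus strand) for Ccnb1.
Top2a: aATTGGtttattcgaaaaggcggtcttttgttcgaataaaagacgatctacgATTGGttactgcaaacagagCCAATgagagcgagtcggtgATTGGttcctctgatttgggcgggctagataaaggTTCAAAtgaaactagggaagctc
Kif11: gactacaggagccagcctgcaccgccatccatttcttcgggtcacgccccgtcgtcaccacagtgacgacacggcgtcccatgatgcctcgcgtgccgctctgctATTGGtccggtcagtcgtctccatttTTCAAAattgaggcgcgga
Cdc20: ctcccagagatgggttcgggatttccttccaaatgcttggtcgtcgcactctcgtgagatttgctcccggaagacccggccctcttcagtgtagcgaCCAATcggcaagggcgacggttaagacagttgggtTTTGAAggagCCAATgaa
Ube2c: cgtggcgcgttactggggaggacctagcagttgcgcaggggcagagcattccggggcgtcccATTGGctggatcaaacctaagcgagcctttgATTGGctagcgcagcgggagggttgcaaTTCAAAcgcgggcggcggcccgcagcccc
Cdk1: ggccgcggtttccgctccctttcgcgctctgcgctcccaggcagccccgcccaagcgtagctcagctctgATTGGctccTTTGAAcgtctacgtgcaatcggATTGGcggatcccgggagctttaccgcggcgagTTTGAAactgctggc
Ccnb1: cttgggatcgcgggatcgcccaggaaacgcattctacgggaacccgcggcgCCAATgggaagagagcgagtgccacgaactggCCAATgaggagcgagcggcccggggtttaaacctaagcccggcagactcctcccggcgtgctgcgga

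In windows from 250 bases before to 50 after a start, TTTGAA on either strand was found in 17 of 24 windows of the mitosis list (70.8%), beside 17.9% of all 32851 windows. CCAAT was found in 21 of 24 (87.5%) beside 37.4%, and both together in 16 of 24 (66.7%) beside 6.95%. The 24 windows cover 23 of the 27 genes of the list. The counts are matches of letters and not measured binding sites.

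Several genes of glycolysis also varied together. Eno1 and Pkm, enzymes of its last steps, had a rho of 0.73 (0.72 over 81 cells, 0.65 adjusted), Pgk1 and Tpi1 of 0.71 and Tpi1 and Ldha, which makes lactate, of 0.70. The list had a median of 0.37 over 78 pairs, of which 9 reached 0.6, and the lowest pair, Hk2 with Pfkp, was at -0.05. The share of reads of this list had a rho of -0.30 with the reads of a cell and of -0.37 with the mitochondrial share. The part of either in these values was not tested beyond the adjustment. Among genes of the response to amino acid shortage, the serine synthesis enzyme Psat1 and the mitochondrial folate enzyme Mthfd2 had a rho of 0.70 (0.70 and 0.64), and the list had a median of 0.27 (0.26 over 81 cells, 0.16 adjusted) with 2 of 36 pairs at 0.6. Its share of reads had a rho of -0.59 with the mitochondrial share of a cell (-0.62 over 81 cells), whose part in these values was not tested beyond the adjustment. Many of these genes are known targets of the factor ATF4. Its composite element is written here as TGATGNAA on either strand, in capitals in the start regions of 2 genes picked because they hold it, asparagine synthetase, chr6:7693210-7693359 (minus strand), which is on the list, and glycyl-tRNA synthetase, chr6:55037851-55038000 (plus strand), which is not.
Asns: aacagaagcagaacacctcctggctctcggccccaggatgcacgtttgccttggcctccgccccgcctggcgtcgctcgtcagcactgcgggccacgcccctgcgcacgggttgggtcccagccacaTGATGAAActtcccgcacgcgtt
Gars: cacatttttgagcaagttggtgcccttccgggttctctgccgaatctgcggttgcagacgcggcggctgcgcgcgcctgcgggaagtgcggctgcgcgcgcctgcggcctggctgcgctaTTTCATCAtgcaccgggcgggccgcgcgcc

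This element was found in 7 of 17 windows of the list (41.2%) and in 3.97% of all windows, and in no window of Psat1, Mthfd2 or Shmt2. The 17 windows cover 15 of the 18 genes of the list.

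The metallothioneins Mt1 and Mt2, small zinc-binding proteins whose genes lie side by side on chromosome 8, are given as a pair chosen after its values were seen. Mt1 had 18, 160.5 and 1380 thinned reads in the lowest, median and highest cell, and Mt2 had 1, 33.5 and 354. Wells H08 and B02 were the 2 highest for both, with 1380 and 1166 reads of Mt1 beside 371 in the next cell. Their rho was 0.61 over 90 cells, 0.56 over 81 and 0.68 after adjustment. Their start regions, chr8:94178939-94179088 (plus strand) and chr8:94172468-94172617 (plus strand), hold the core of the metal response element, TGCACNC or TGCGCNC on either strand, in capitals.
Mt1: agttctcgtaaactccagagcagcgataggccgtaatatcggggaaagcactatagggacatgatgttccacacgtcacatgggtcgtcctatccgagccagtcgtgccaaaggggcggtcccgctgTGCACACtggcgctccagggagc
Mt2: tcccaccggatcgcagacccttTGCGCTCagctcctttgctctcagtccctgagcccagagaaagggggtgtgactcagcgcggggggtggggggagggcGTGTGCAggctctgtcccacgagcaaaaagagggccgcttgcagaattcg

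In the longer windows the core was found 3 times at Mt1 and 4 times at Mt2, while 25.7% of all windows held it at least once and 1.97% at least 3 times. A further pair chosen in this way, the noncoding RNAs Meg3 and Rian of the imprinted Dlk1-Dio3 region on chromosome 12, had a rho of 0.61 (0.61 over 81 cells and 0.59 adjusted).

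Naive factors showed weaker correlations with each other than the lists of mitosis, glycolysis and amino acid shortage. Over 45 pairs of 10 factors the median rho was 0.11 (0.098 over 81 cells, 0.087 adjusted), beside 0.032 for all pairs, and 0 pairs reached 0.6. The highest, Esrrb with Tcl1, was at 0.44, Nanog with Zfp42 at 0.30, and the lowest, Klf5 with Zfp42, at -0.13. Some other lists were also low, with medians of 0.076 for the core factors, 0.053 for Polycomb genes and 0.023 for translation factors. Others were higher, such as cholesterol synthesis genes at 0.20. Among the core factors, Pou5f1 and Sall4 had a rho of 0.29 and Pou5f1 and Rif1, a chromatin protein of replication timing, of -0.47 (-0.55 over 81 cells, -0.31 adjusted).

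Among the 1349 pairs left after unnamed genes, copies and overlaps were set aside, the highest values were those of ribosomal protein genes. Rps18 and Rps14 had a rho of 0.87 over 90 cells (0.84 over 81, 0.81 adjusted), and Rps19 and Rps14 of 0.86. Over 2701 pairs of the list the median was 0.50, 726 pairs (26.9%) reached 0.6, and the lowest pair, Rps2 with Rpl39, was at -0.57. The mean rank of the list had a rho of -0.50 with the reads of a cell and of -0.51 with the mean transcript length of its reads, and the part of either in these values was not tested beyond the adjustment. Genes of the mitochondrial genome had a median of 0.66 over 21 pairs and of 0.086 after adjustment, where their own share of reads is one of the terms removed.

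Some groups opposed each other. Fkbp3, Mrps18c, Snrpe and Uqcrb, which encode a prolyl isomerase, a mitochondrial ribosomal protein, a splicing protein and a subunit of respiratory complex III, were linked at 0.7 or more, with Uqcrb and Fkbp3 at 0.79 (0.78 over 81 cells, 0.65 adjusted). The elongation factors Eef1a1, Eef1g and Eef2 formed another group, with Eef2 and Eef1a1 at 0.73. Summed reads were 88, 485 and 5509 in the lowest, median and highest cell for the first and 27, 1628 and 3032 for the second, and over the 81 cells they ran from 88 to 1692 and from 520 to 3032. The mean ranks of both groups had a rho of -0.74 (-0.71 over 81 cells). The first group had a rho of 0.56 with the reads of a cell and of 0.54 with the mitochondrial share, and the second of -0.46 and -0.37, so depth moved with both.

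The lowest pair was mt-Cytb with Aars, which charges tRNA with alanine, at -0.72 over 90 cells, -0.68 over 81, -0.47 after adjustment, and -0.89 and -0.54 in the parts of the plate. Atp5b, a nuclear-encoded subunit of ATP synthase, had a rho of -0.65 with mt-Cytb and of -0.57 with mt-Co1, of which the second was -0.71 over 81 cells and 0.12 after adjustment. Vps35, of the retromer that recycles membrane proteins, had a rho of -0.68 with Rplp2, -0.66 with Rpl18 and -0.64 with Rplp1, and these were -0.64, -0.63 and -0.60 after adjustment. The pairs with mitochondrial genes thus lay nearer to 0, or on its other side, after the joint adjustment for reads, genes with a read and mitochondrial share, and the Vps35 pairs moved less. Which of the 3 terms moved them was not tested.

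**Figure D4:**
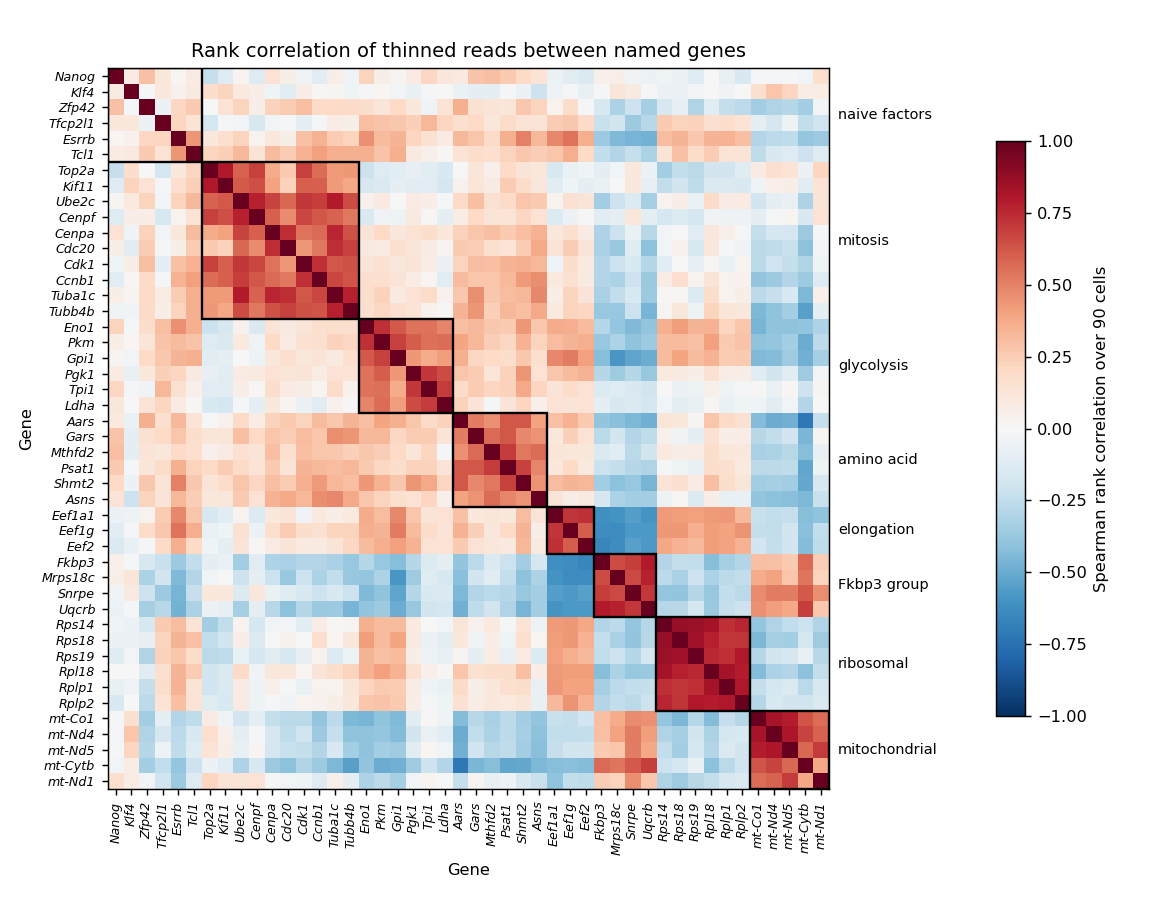
Spearman rho over 90 cells between 46 genes in 8 boxed groups, from -1 (blue) to 1 (red). The mitosis box (Top2a with Kif11 at 0.80) and the ribosomal box (Rps18 with Rps14 at 0.87) hold positive values in every pair, the box of naive factors is pale (Esrrb with Tcl1 at 0.44), and the elongation and Fkbp3 groups are blue against each other (Eef2 with Fkbp3 at -0.65).

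**Figure D5:**
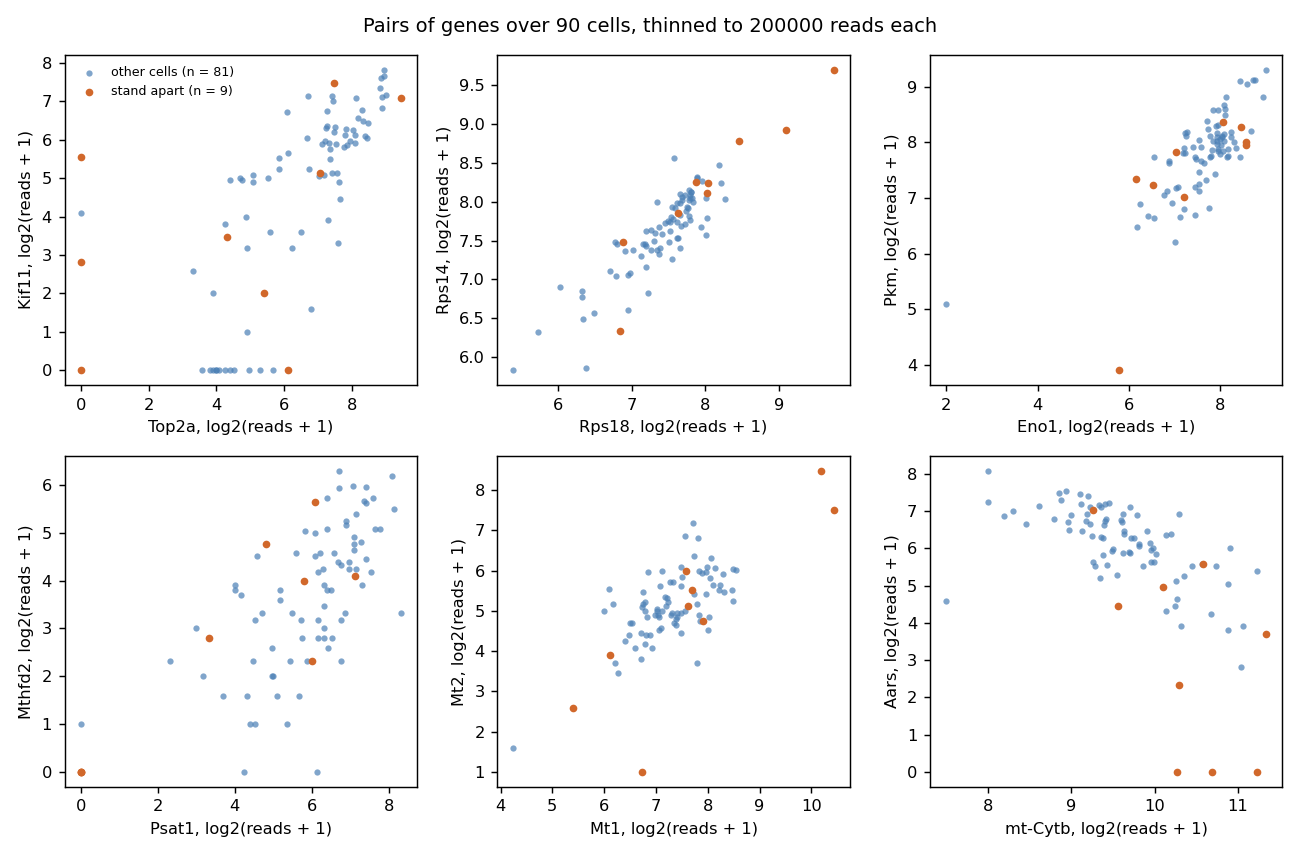
Thinned reads of both genes in each cell, as log2(reads + 1), for 6 pairs, with the 9 cells that stood apart in orange and the 81 others in blue. The pairs are Top2a with Kif11 (rho of 0.80), Rps18 with Rps14 (0.87), Eno1 with Pkm (0.73), Psat1 with Mthfd2 (0.70), Mt1 with Mt2 (0.61) and mt-Cytb with Aars (-0.72).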

How the data were processed

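Raw read counts per gene were deposited by the authors as 1 table with a column per well. The labels and their processing notes name the GRCm38 build and HISAT2; the counting tool and annotation are not given in the sources used here. All columns matched a label, and 0 columns were left out as unmatched. Members were the D0 wells with over 200000 reads, over 2000 genes with a read and under 15% of reads on genes named mt-. Wells labelled for later times served only to give the size of the series. The members and the gene lists were chosen with earlier results of these data known, so counts of list members are descriptions and no test was run.

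Depth ran from 255040 to 10073010 reads per cell. Each cell was thinned without replacement to 200000 reads (seed 1). Per-length levels are reads divided by the median spliced transcript length of a gene in an annotation of the same build, scaled to 1000000 per cell; genes without a length were left out and held 0.773% of reads. The CV ratio was taken over genes with a mean of at least 5 thinned reads and a read in at least 10 cells, against the 100 genes nearest in mean. Spearman correlations were taken over genes with a mean of at least 5 thinned reads and a read in at least 80% of thinned cells. A pair counted as near-identical copies when at least 10% of the 50-base words of one occurred in the other. Genes named were the 4 markers, the 20 most abundant per length, the 20 of widest spread with and without the cells that stood apart, the genes of the 20 highest and 10 lowest correlations, and from each list the 3 highest in level and in spread. Genes without an established symbol were counted only (2 lay ahead of the last named for abundance, 1 and 6 for spread). Other members of a list, the zinc finger clusters, motifs, linked groups and the pairs said to be so were chosen after their values were seen. Alternatives changed thinning, cells, plate columns, filters, lengths and the measure of spread or correlation. Python 3.11.15, numpy 2.4.6, pandas 2.3.3, scipy 1.17.1, networkx 3.6.1 and matplotlib 3.10.9 were used, and the scripts were tested on simulated data.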

Additional observations from a re-analysis of the deposited data

How the results depend on the processing

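With limits of 300000 reads and 3000 genes 87 cells passed, whereas a mitochondrial limit read as 0.15 percent left 0. Of the 20 most abundant genes, 14 to 20 were kept under every alternative run, 2 of which were added after seeing the data. The number of genes read in every cell was 2003 without the cells that stood apart, 1265 and 1186 in plate columns 1 to 6 and 7 to 12, and 1 with no filter on cells. Of the 20 genes of widest spread, 5 were kept without the highest cell of each gene, 5 without the cells that stood apart, 1 with the SD of log2(thinned reads + 1), 13 at a mean of at least 20, and 11 in either part of the plate. The number of genes with a CV ratio of at least 2 over the 90 cells was 39 without each gene's highest cell, 35 of them among the 131, and 72 without the cells that stood apart. Pairs at 0.6 or more numbered 3651 in CPM, 14121 by Pearson correlation of log2 values, 573 after adjustment, and 2717 and 4968 in the parts of the plate. Pairs at -0.6 or below numbered 59, 1049, 2, 763 and 574 under the same settings. The parts of the plate hold fewer cells than the whole, and what moved these counts was not tested. Of 301 values of 43 named pairs, 45 moved and 2 reversed, both after adjustment: mt-Co1 with mt-Cytb to -0.20 and Atp5b with mt-Co1 to 0.12. Of 96 medians of 24 lists, 5 moved. No paired analysis was possible because 1 group of cells was described and no groups were compared. Depth limits the reading of a 0: at 200000 reads a gene of low mean is missed in cells that express it.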
